A study of Mus musculus with 12 samples.

Results

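In liver RNA, 119 genes had lower group means on a high-fat diet than on a normal diet in wild-type mice and higher ones in mice lacking NLRP6. They were chosen from read counts per 1000000 counts of the library (CPM), with 0.1 CPM added to each group mean. The ratio of the high-fat to the normal diet had to be at least 1.5 in the knockout and at most 0.67 in the wild type. Only annotated rows with a mean of 1 to 1000 CPM over the 12 libraries were eligible, and 1 block of ID numbers fixed by the rule was left out. This left 11702 of the 42554 rows, of which the 119 genes were 1.02%.

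Livers came from 4 groups of 3 libraries each: NLRP6 knockout mice on a high-fat diet (KO HFD), NLRP6 knockout mice on a normal diet (KO ND), wild-type mice on the high-fat diet (WT HFD) and wild-type mice on the normal diet (WT ND). All mice ate the normal diet until 8 weeks of age, and the high-fat groups then received their diet for 12 weeks. The study addressed the part of NLRP6 in lipid droplet accumulation in hepatocytes. The submitters state that NLRP6 was lost in hepatocytes; how the knockout was made, and the sex of the mice, are not stated in the sources used. Nothing in the labels says whether replicates came from separate animals, so the spread between them may be technical in part.

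NLRP6 is a receptor of the NOD-like family, known chiefly from the intestinal epithelium and linked to inflammasome signalling. A high-fat diet is known to load hepatocytes with triglyceride and to change the expression of many liver genes. Where a diet ratio has opposite directions in the 2 genotypes, the diet's effect can be stated only for each genotype. The count table pairs no ID with a gene name, and no ID matched the gene tables used here. The 119 genes are therefore described by their levels, cell type markers were not analysed here, and 4 genes are printed by ID. In whole-liver RNA, fewer cells of a type and less RNA per cell cannot be told apart.

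Libraries held 13339879 to 15933886 counts. The row of the deleted gene was not identified, since IDs carry no names, so the genotype labels were not checked on it. One row, found by its values and of unknown identity, had no count in any of the 6 KO libraries and at least 5 in every WT library. KO HFD replicate 1 stood apart from the other KO HFD libraries for many of the 119 genes. The main medians, sums and counts of calls over the 119 genes that rest on KO HFD are therefore also given without replicate 1. The choice of total counts as the scale also mattered. Over all 13843 genes with enough counts to be tested, the median log2 ratio of HFD to ND by total counts was -0.19 in KO and -0.31 in WT. With library sizes adjusted by trimmed mean of M-values (TMM), a scaling that sets the typical gene near no change, these medians were 0.01 and -0.03. Levels below are in CPM by total counts, and fitted log2 changes use TMM.

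The values that chose the genes ran over a wide range. The KO ratio of HFD to ND had a median of 2.0, quartiles of 1.68 and 3.19, and a highest value of 191. Its median over the same genes was 2.46 with KO HFD replicate 1 left out. The WT ratio had a median of 0.488, quartiles of 0.368 and 0.594, and a lowest value of 0.0632. Ratios of at least 2 in KO and at most 0.5 in WT together were found for 36 genes. Near the KO limit of 1.5, the nearest gene outside had a ratio of 1.499 and the nearest inside lay closer to the limit than that gene. Under 1.6 lay 16 of the 119 genes, with a further 23 between 1.4 and 1.5 just outside. The WT ratio was 0.667 for the nearest gene inside and 0.671 for the nearest outside, and 28 genes lay above 0.6, with a further 28 between 0.67 and 0.74 just outside. Of the 4282 eligible genes with a WT ratio of at most 0.67, 2859 also had a KO ratio of at most 0.67, and the 119 genes made up 2.78%. Of the 1678 eligible genes with a KO ratio of at least 1.5, the 119 made up 7.09%.

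**Figure D1:**
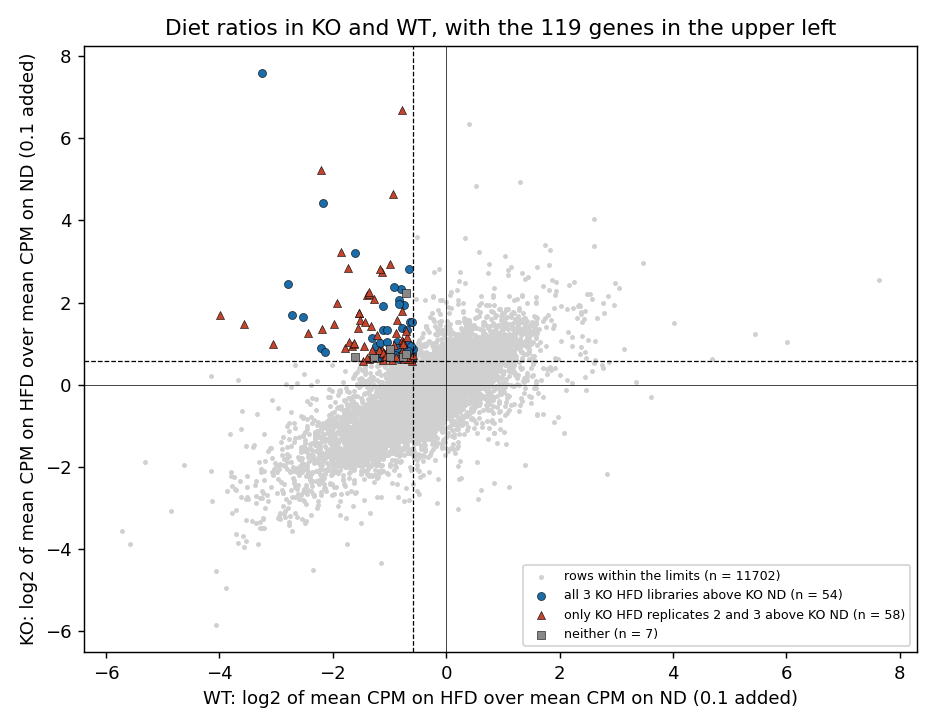
Diet ratios of each eligible gene, in KO on the vertical axis and in WT on the horizontal axis, both as log2 of the mean CPM on HFD over that on ND with 0.1 added. Grey points are all 11702 eligible rows, coloured points are the 119 genes by their pattern in KO HFD libraries, and dashed lines mark the limits of 1.5 and 0.67. Most grey points run along a rising diagonal, and the 119 genes lie off it at the upper left.

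By the scale of the typical gene, the KO rise was larger than the WT fall. By total counts, the scale that chose the genes, they were of similar size. The median log2 ratios of HFD to ND were then 0.997 in KO and -1.03 in WT. TMM library sizes moved both medians upward, so the difference between rise and fall depended on the scale. With TMM library sizes all 119 genes kept a KO ratio of at least 1.5, and 74 kept a WT ratio of at most 0.67. The WT ratio stayed under 1 for all 119, with a highest value of 0.815 and a median of 0.599. The fitted log2 change on HFD had a median of 1.23 in KO and of -0.76 in WT over the 119 genes, against 0.01 and -0.03 over all genes tested. The KO median was 1.496 with KO HFD replicate 1 left out. Because these contrasts chose the genes, their values are a description and no support for the pattern.

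All 119 genes had enough counts to be tested with the quasi-likelihood test of edgeR, in which a gene was called at an adjusted p under 0.05 over all genes tested. Within KO, 81 of the 119 were called higher on HFD than on ND, where 22.6% of all genes tested were. Within WT, 26 were called lower on HFD than on ND, where 21.5% of all genes were. Both calls were made for 19 of the 119, against 0.253% of all genes. The interaction, which is the KO change minus the WT change, was called higher in KO for 31, against 0.766% of all genes. Nothing is read from these shares, since the choice of genes used the same contrasts.

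These counts depended on single libraries. With KO HFD replicate 1 left out, the interaction was called for 87 of the 119 genes, where 4.05% of all genes in that fit were, and both diet contrasts for 50, where 0.824% were. Calls thus became more frequent over all genes as well. Of the other KO libraries, leaving out HFD replicate 2 gave 18 interaction calls, HFD replicate 3 gave 5, ND replicate 2 gave 14 and ND replicate 3 gave 19. Of the WT libraries, leaving out HFD replicate 2 gave 19, HFD replicate 3 gave 4 and ND replicate 2 gave 17. Over these 7 fits the share of all genes called was 0.0492% to 0.359%. Both-contrast calls were fewest, 11, with WT HFD replicate 3 left out, where 0.12% of all genes were called. Leaving out any other library except KO HFD replicate 1 gave 13 to 19, where 0.127% to 0.247% of all genes were called. Lower WT levels on HFD were called for 17, 14 and 15 genes when WT HFD replicate 2, WT HFD replicate 3 or WT ND replicate 2 was left out, where 16.4% to 18.6% of all genes were. Within KO, levels higher on HFD than on ND were called for 54 to 94 genes when any 1 KO library was left out. In these fits 17.8% to 21.8% of all genes were called.

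The genes fell into 2 main patterns by the KO HFD libraries, a division made after their values were seen. In 54 genes all 3 KO HFD libraries lay above all 3 KO ND libraries. This was so for 19.2% of the 11702 eligible genes. In 58 genes KO HFD replicates 2 and 3 lay above all KO ND libraries and replicate 1 did not, which was so for 5.79% of eligible genes. The remaining 7 genes showed neither pattern. With TMM library sizes the 2 patterns held 65 and 50 of the 119 genes, where the background shares were 27.1% and 6.05%. The choice of genes favoured both patterns, since the KO HFD mean had to exceed the KO ND mean.

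In the 58 genes, KO HFD replicate 1 was by definition no higher than the highest KO ND library, and replicates 2 and 3 were above it. Each gene's log2 CPM, with 0.1 added, was set against its own mean over the 12 libraries, and the median over the 58 genes was -0.98, 1.55 and 1.19 in the KO HFD replicates 1 to 3. The KO ND replicates had medians of -0.43, -0.46 and -0.41, the WT HFD replicates -0.78, -0.67 and -0.65, and the WT ND replicates 0.18, 0.78 and 0.76. KO HFD replicates 2 and 3 were therefore the highest of the 12 libraries at the median of these genes, and replicate 1 was the lowest. Replicate 1 had a median of 0.764 times the KO ND mean, against 3.30 times in replicate 2 and 2.77 times in replicate 3. It was at or below the highest WT HFD library in 54 of the 58 genes, while replicates 2 and 3 both exceeded all WT HFD libraries in 55. The division and the choice of genes favoured both counts. Their shares over eligible genes are not given here, so nothing is read from them. In WT ND, replicate 1 was the lowest of the 3 libraries in 41 of the 58, and in 42.4% of eligible genes.

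In the 54 genes, the KO rise was smaller at the median and more even, and the division favoured the evenness. Their medians were 0.18, 0.49 and 0.45 in KO HFD replicates 1, 2 and 3, against -0.64, -0.96 and -0.53 in the KO ND replicates. They were -0.21, -0.36 and -0.22 in the WT HFD replicates, against 0.53, 0.88 and 0.51 in the WT ND replicates. The separation of the KO libraries by diet was fixed by the division, and that of the WT libraries was favoured by the choice of genes. At the median the KO ND libraries were lowest and WT ND replicate 2 was highest. KO HFD replicate 1 was the lowest of its group in 38 of the 54 genes, and in 53.3% of eligible genes. Its median was 0.806 times the mean of replicates 2 and 3, against 0.187 times in the 58 genes and 0.903 times over all eligible genes.

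**Figure D2:**
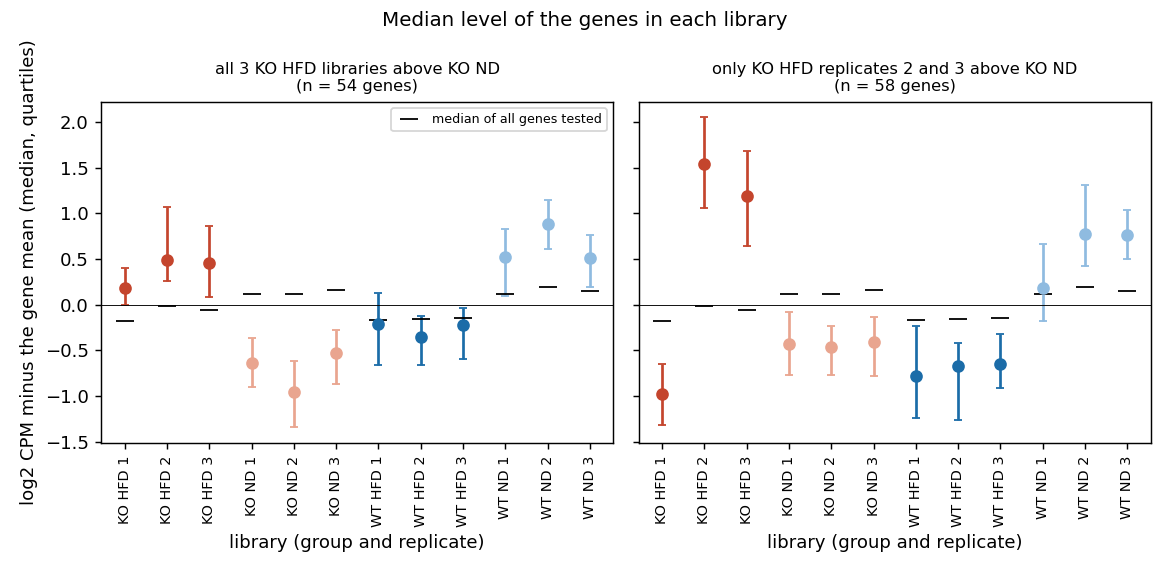
Median and quartiles, over the 54 genes (left) and the 58 genes (right), of log2 CPM minus each gene's mean over 12 libraries, by library and in the colour of its group. Black dashes give the median over all genes tested. KO HFD replicate 1 lies at 0.18 on the left and at -0.98 on the right, while KO HFD replicates 2 and 3 are high in both.

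**Figure D3:**
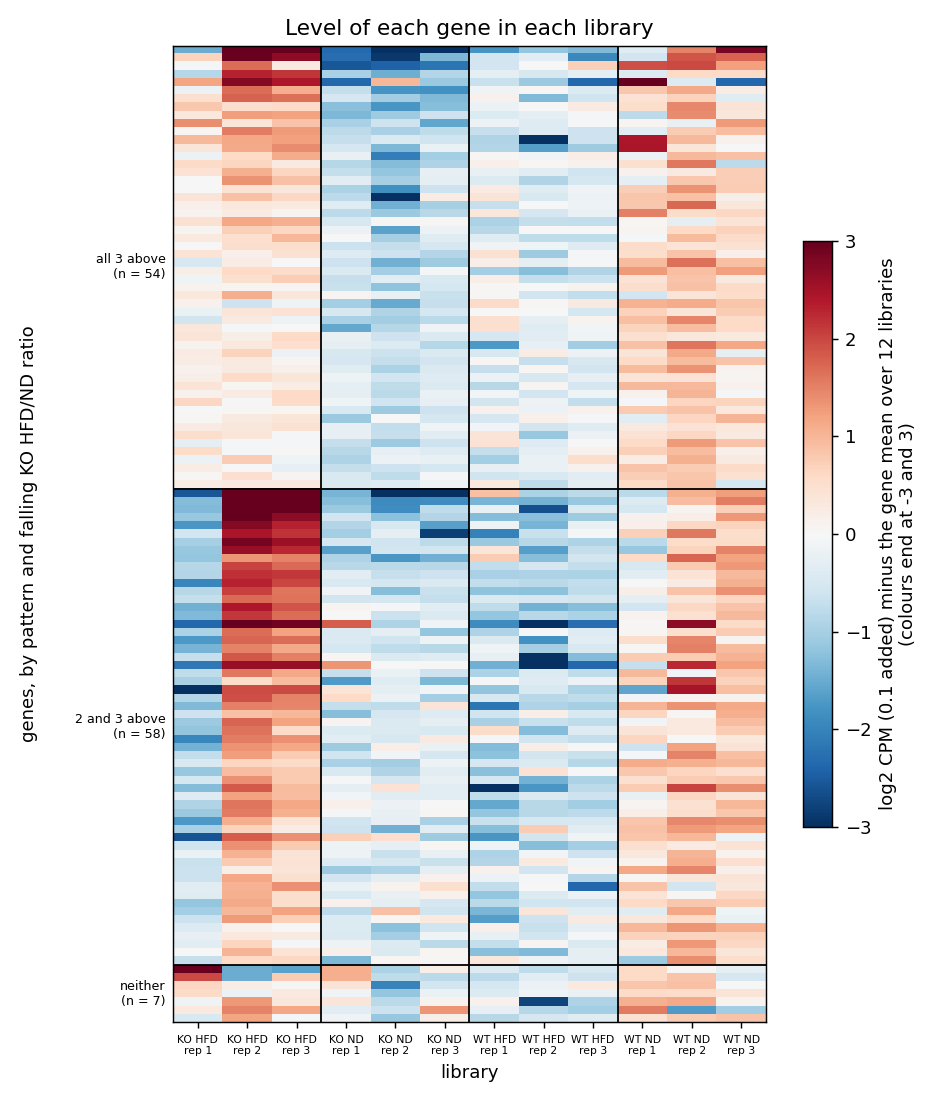
Log2 CPM of each of the 119 genes in each library, minus the gene's mean over 12 libraries, with red for high and blue for low. Genes run down the page by pattern (54, 58 and 7 genes) and then by falling KO ratio. The 58 genes in the middle block are red in KO HFD replicates 2 and 3 and mostly blue in replicate 1.

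The spread between replicates in KO HFD is in part fixed by the division, which was made on replicate 1, and is given as a description. The median coefficient of variation of the 58 genes was 69.0% in KO HFD, 25.3% in KO ND, 30.8% in WT HFD and 36.8% in WT ND. For the 54 genes it was 21.7% in KO HFD, 21.7% in KO ND, 22.2% in WT HFD and 31.1% in WT ND. Over all eligible genes it was 18.1%, 11.5%, 14.1% and 13.3% in the same groups. The 119 genes thus had a higher median than eligible genes in every group, at 45.5% in KO HFD, 25.6% in KO ND, 26.5% in WT HFD and 33.5% in WT ND. The choice of genes used the same libraries, and 63 of the 119 had a mean under 5 CPM, where counting error was larger. The part of either in these medians was not tested. KO HFD replicate 1 lay under 0.5 times the mean of replicates 2 and 3 in 54.6% of the 119 genes and in 7.83% of eligible genes. It was the lowest of the 3 KO HFD libraries in 83.2% of the 119 genes and in 53.3% of eligible genes. The part of this library in the KO rise was not tested beyond leaving it out.

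**Figure D4:**
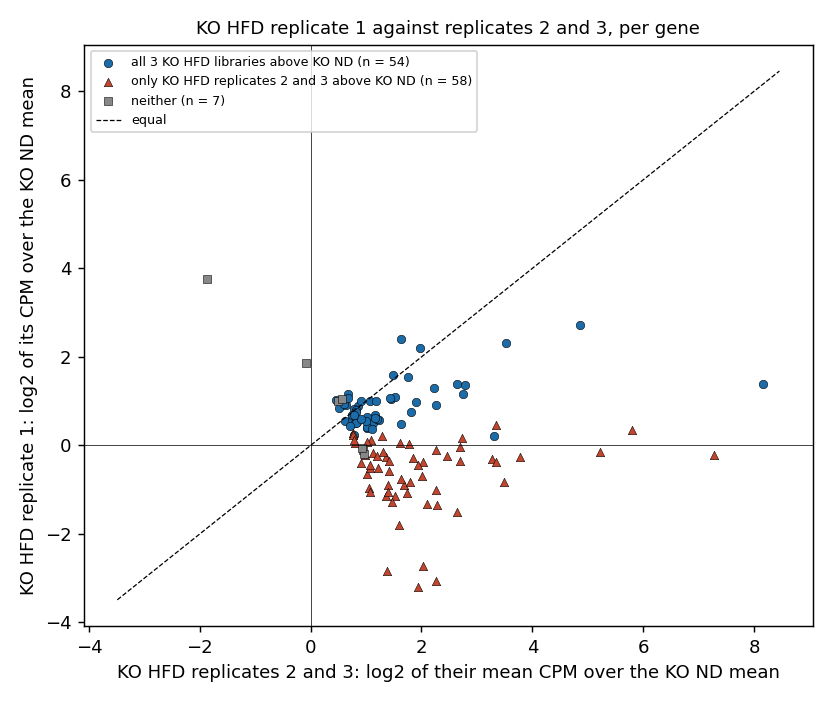
Each of the 119 genes by its level in KO HFD replicate 1 (vertical) and in the mean of KO HFD replicates 2 and 3 (horizontal), both as log2 over the KO ND mean with 0.1 CPM added. Colours give the pattern and the dashed line marks equal levels. The 58 genes lie below the line, most of them under 0 on the vertical axis, while many of the 54 genes lie near it.

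The departures of KO HFD replicate 1 and of WT ND replicate 1 went together across the genes. Both were taken as the log2 level in replicate 1 over the mean of replicates 2 and 3 of the same group. Over the 119 genes Pearson's r between them was 0.49 and Spearman's rho 0.51, and over all 11702 eligible genes they were 0.27 and 0.26. These are descriptions across genes that share the same 6 libraries, and genes are not independent replicates. WT ND replicate 1 was the lowest of its group in 52.1% of the 119 genes and in 42.4% of eligible genes. In a comparison of same-numbered libraries not limited to the 119 genes, the correlation of deviations was 0.27 for this pair. For replicate 1 it was 0.28 between KO HFD and WT HFD and 0.28 between KO ND and WT ND. Between the other pairs of groups it was 0.03 to 0.12 for replicate 1. This pair thus did not stand out there, and the others were not compared over the 119 genes.

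The remaining 7 genes had uneven levels within groups. One of them, chosen after its values were seen, had a KO ratio of 4.68 with 39.7 CPM in KO HFD replicate 1, against 0.743 in replicate 2 and 0.680 in replicate 3. Its KO ND libraries had 4.90, 1.12 and 2.55 CPM, so that replicates 2 and 3 were below every KO ND library. For this gene the group mean of KO HFD describes 1 library.

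Summed over the 119 genes, the level was 3152.5, 14227 and 12138 CPM in the KO HFD replicates, against 3321, 2629.8 and 2899 CPM in the KO ND replicates. It was 3087, 2897 and 2962 CPM in the WT HFD replicates, against 4778, 7510.3 and 7698 CPM in the WT ND replicates. KO HFD overlapped KO ND through replicate 1, and WT HFD and WT ND did not overlap. The choice of genes fixed the direction of both diet differences in the group means, so the sums are a description. The sum rests on few genes: the 13 with a mean of at least 100 CPM held 70.5% to 84.7% of it per library, and 8 of these 13 were among the 58 genes. The mean was 9839 ± 5884 CPM in KO HFD, 2949.8 ± 348 CPM in KO ND, 2982 ± 96.1 CPM in WT HFD and 6662 ± 1634 CPM in WT ND (SD, n = 3 each). The KO HFD mean was 13182 CPM with replicate 1 left out.

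In WT, all 3 HFD libraries lay below all 3 ND libraries for 85 of the 119 genes, against 45.3% of eligible genes. With TMM library sizes this was so for 51, against 29.9%. Groups without overlap in both genotypes, up in KO and down in WT, were found for 38 of the 119 genes by total counts, against 0.94% of eligible genes. With TMM they were found for 26, against 0.615%. The choice of genes used the diet ratios of these same libraries and favoured such separation, so nothing is read from these shares.

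On the normal diet, most of the genes had lower levels in KO than in WT. The ratio of KO ND to WT ND had a median of 0.452 and quartiles of 0.337 and 0.552, against a median of 0.984 over eligible genes, and 117 of the 119 fitted log2 differences were negative. All 3 KO ND libraries lay below all 3 WT ND libraries for 85 genes, against 18.3% of eligible genes, and 35 were called lower in KO, against 2.85% of all genes tested. Of the 35 called, 27 were among the 54 genes. By TMM library sizes the groups were apart for 86, against 17.3%. Leaving out KO ND replicate 1, 2 or 3 gave 21, 13 and 21 calls, and leaving out WT ND replicate 2 gave 17, where 0.486% to 1.41% of all genes were called. This contrast was not a criterion, but it is made of the same group means, so a low KO ND and a high WT ND were favoured by the choice.

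On the high-fat diet, most group means were higher in KO than in WT, which the choice of genes favoured, since KO HFD and WT HFD stand in its 2 ratios. The ratio of KO HFD to WT HFD had a median of 2.16 and quartiles of 1.46 and 3.73, against a median of 1.06 over eligible genes. With KO HFD replicate 1 left out the medians were 2.54 and 1.09. With all libraries the ratio was 3.08 at the median of the 58 genes and 1.56 at the median of the 54. All 3 KO HFD libraries lay above all 3 WT HFD libraries for 34 of the 119 genes, against 8.84% of eligible genes, and 29 of these 34 were among the 54 genes. By TMM library sizes this was so for 31, against 6.54%. Only 2 genes were called higher in KO, MGP_C57BL6NJ_G0030745 among them, against 0.0867% of all genes tested. With KO HFD replicate 1 left out, 49 were called, where 3.34% of all genes in that fit were. Leaving out KO HFD replicate 2 or 3, or any 1 of the WT HFD replicates, left 1 gene called, where 0.0282% to 0.0494% of all genes were, and the call of MGP_C57BL6NJ_G0030745 was lost each time. It was also lost when the 6 HFD libraries were fitted alone.

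Across genotype and diet together, KO HFD lay above WT ND for some genes and below it for others. The ratio of KO HFD to WT ND had a median of 0.987 and quartiles of 0.780 and 1.45 over the 119 genes, against a median of 0.851 over eligible genes, and 59 of the 119 were higher in KO HFD. With KO HFD replicate 1 left out the medians were 1.12 and 0.876, and 72 of the 119 were higher. With all libraries the ratio was 1.26 at the median of the 58 genes and 0.866 at the median of the 54. The ratio of KO ND to WT HFD had a median of 0.905 over the 119 genes and of 1.24 over eligible genes. It was 1.21 at the median of the 58 genes and 0.765 at the median of the 54. The lowest of the 4 group means was KO ND in 43 of the 54 genes and WT HFD in 33 of the 58.

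The gene with the largest KO ratio was MGP_C57BL6NJ_G0026023, one of the 54. It had 9.60, 1206 and 924 CPM in the KO HFD replicates, against 5.27, 2.66 and 2.95 CPM in the KO ND replicates. It had 7.85, 11.9 and 10.6 CPM in the WT HFD replicates, against 20.8, 76.4 and 196 CPM in the WT ND replicates. The groups did not overlap within either genotype, but KO HFD replicate 1 was close to KO ND and lay within the WT HFD range, and the WT ND replicates spanned a wide range. The fitted log2 change on HFD was 7.76 (SE 1.64) in KO and -2.98 (SE 1.32) in WT. The KO change was called and the WT change was not, and the difference between them, 10.74 (SE 2.09), was not called. It was called, at 11.32, with KO HFD replicate 1 left out and, at 11.22, with WT ND replicate 1 left out. With WT ND replicate 3 left out it was 9.71, not called, and the WT change was -1.95.

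Among the 33 genes without overlap in either genotype and with at least 1 CPM in each group mean, the second by its KO ratio, MGP_C57BL6NJ_G0028949, was also one of the 54, and its KO HFD replicates were close to each other. It had 12.0, 9.89 and 10.3 CPM in the KO HFD replicates, against 2.82, 1.96 and 2.75 CPM in the KO ND replicates. It had 6.03, 6.80 and 8.09 CPM in the WT HFD replicates, against 9.85, 18.7 and 9.02 CPM in the WT ND replicates. KO HFD was above KO ND in every library, by a fitted log2 change of 2.30 (SE 0.28), and replicate 1 was the highest of the KO HFD group. The KO change was called and the WT change, -0.55 (SE 0.26), was not, and the WT change was -0.17 with WT ND replicate 2 left out. On ND, KO was below WT by a log2 difference of -2.28 (SE 0.28), which was called.

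After MGP_C57BL6NJ_G0026023, the 2 genes with the lowest WT ratio among those 33 had a steep WT fall and a moderate KO rise. MGP_C57BL6NJ_G0030745 had 8.85, 11.7 and 11.4 CPM in the KO HFD replicates, against 5.71, 3.79 and 7.45 CPM in the KO ND replicates. It had 3.78, 3.16 and 4.08 CPM in the WT HFD replicates, against 19.0, 14.6 and 18.4 CPM in the WT ND replicates. All 4 groups of this gene were apart except KO ND and WT HFD, which overlapped. Its fitted log2 change on HFD was 1.12 (SE 0.23) in KO and -1.95 (SE 0.23) in WT. KO was above WT on HFD by 1.46 (SE 0.23) and below it on ND by -1.60 (SE 0.23), both on the log2 scale.

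MGP_C57BL6NJ_G0032490 was less abundant, with 9 to 107 counts per library. It had 2.55, 2.97 and 3.40 CPM in the KO HFD replicates, against 1.95, 1.75 and 1.27 CPM in the KO ND replicates. It had 0.654, 1.99 and 1.09 CPM in the WT HFD replicates, against 4.43, 7.49 and 5.47 CPM in the WT ND replicates. WT ND lay above all other libraries and KO HFD above KO ND and WT HFD. The fitted log2 change on HFD was 1.04 (SE 0.35) in KO and -1.91 (SE 0.35) in WT, both called. The KO call was lost when KO HFD replicate 3, KO ND replicate 2 or KO ND replicate 3 was left out.

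**Figure D5:**
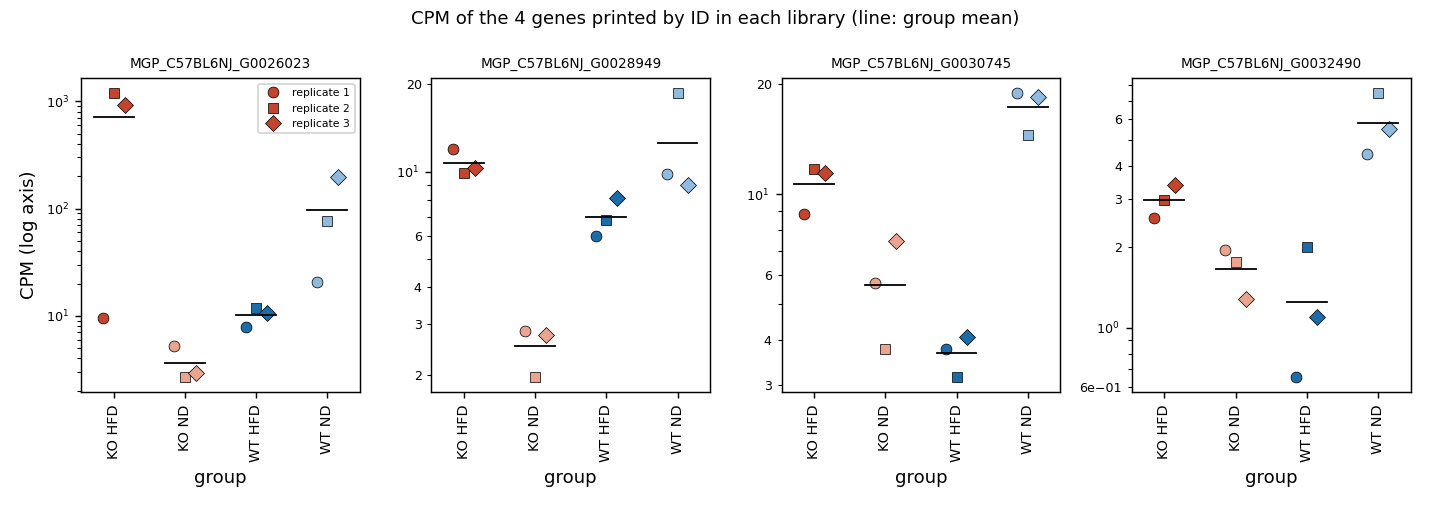
CPM of the 4 genes printed by ID in each library, on log axes, with a line at each group mean and a marker shape per replicate. In MGP_C57BL6NJ_G0026023, KO HFD replicate 1 (9.60 CPM) lies far below replicates 2 and 3, and in the other 3 genes the KO HFD replicates lie together.

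Counting error was larger for the weaker genes. Of the 119 genes, 63 had a mean under 5 CPM and 6 had a count of 0 in some library. The total over the 3 libraries of a group was under 30 counts in at least 1 group for 20 genes, and the lowest was 5 counts. The sources used do not say how reads that fit several gene copies were assigned, so values of single members of gene families are uncertain.

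The choice of genes also rested on single libraries. With 1 library left out and the same limits, 96 to 166 genes were chosen, and 52 of the 119 were chosen in all 12 such cases, 25 of the 54 genes and 27 of the 58. Leaving out KO HFD replicate 1 gave 166 genes, 112 of them among the 119. Leaving out KO HFD replicate 2 gave 96, with 89 of the 119. Group medians in place of means chose 148 genes, 96 of them among the 119, and TMM library sizes chose 99, 74 of them among the 119.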

How the data were processed

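Per the labels' protocols, Trizol-extracted RNA of frozen liver was prepared with a NEBNext Ultra RNA library kit. The authors deposited whole-number counts for each gene, not normalized. HISAT2 2.0.5, featureCounts 1.5.0-p3 and the build mm39 appear in the submitters' processing notes. The IDs belong to a C57BL/6NJ annotation, so no coordinates or sequences are given. The strand setting is not stated, so reads of overlapping genes on opposite strands cannot be separated. Of 42554 rows, 1458 were unannotated loci, and 0 IDs matched a symbol.

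Groups follow the labels' genotype and diet, and no batch is given there. Replicates differed by 8.05 to 165 in chi-square per degree of freedom, so none was a duplicate. KO HFD replicate 1 gave 165 against replicate 2 and 93.6 against replicate 3, where KO HFD replicates 2 and 3 gave 23.1. The highest value in the other groups was 47.3, in WT ND. Genes kept by filterByExpr (13843) entered the quasi-likelihood test in edgeR 4.0.16 (R 4.3.3, TMM factors, robust, one mean per group, all 12 libraries), adjusted by Benjamini-Hochberg over all genes tested. SEs were the log2 change divided by the root of F. Alternatives were DESeq2 1.42.0, its size factors, no filter, the compared groups alone, a replicate block and leaving out each library. The fits were tested on simulated counts.

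The 119 genes and the lists were chosen with earlier results of these data known. For printing by ID, 33 genes qualified, without overlap between diets in either genotype and with at least 1 CPM in each group mean. Of these, the 2 with the largest KO ratio and then the 2 with the smallest WT ratio not already taken were used. Counts of 5 or fewer genes are otherwise given without IDs.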

Additional observations from a re-analysis of the deposited data

Results flagged for a closer look

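The diet response differed between KO and WT by the interaction term for 3 of the 4 genes printed by ID, which is what flagged them. The genes had been chosen for opposite ratios, so this is a description. The KO change minus the WT change, on the log2 scale, was 2.84 for MGP_C57BL6NJ_G0028949 (SE 0.38), 3.06 for MGP_C57BL6NJ_G0030745 (SE 0.33) and 2.95 for MGP_C57BL6NJ_G0032490 (SE 0.50). The last was no longer called when KO HFD replicate 3 (2.85) or WT HFD replicate 3 (2.86) was left out. In each, all 3 KO HFD libraries were above all 3 KO ND libraries and all 3 WT HFD libraries below all 3 WT ND libraries.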

How the results depend on the processing

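The number of genes chosen was within 1.5 times 119 under 18 of 19 alternatives, from 92 with 0.5 CPM added to 166 without KO HFD replicate 1, and was 36 with ratios of 0.5 and 2. Leaving out 1 library gave 96 to 166. With TMM library sizes, an alternative chosen after seeing the data, 51 genes in place of 85 had no overlap between diets in WT. DESeq2 called 78 of the 119 for the interaction, 54 lower in KO on ND, 33 higher in KO on HFD and 30 in both diet contrasts, where it called 2.9%, 5.08%, 0.983% and 0.376% of all genes in that order, so calls were more frequent over all genes too. The cause was not tested. Fitting just the HFD libraries gave 1 gene higher in KO on HFD, with fewer samples to estimate the spread. With 1 library left out, the counts called were 4 to 87 for the interaction and 11 to 50 in both contrasts. Between diets they were 14 to 24 lower on HFD within WT and 54 to 94 higher on HFD within KO. Between genotypes they were 13 to 29 lower in KO on ND and 1 to 49 higher in KO on HFD. The replicate numbers were not taken as pairs, since the labels do not say that they mark a shared origin and not every correlation between deviations of same-numbered libraries was over 0.1. These ran from -0.03 to 0.28, with 16 of 18 above 0 and 8 above 0.1, and the same number gave the best match of 3 candidates in 20 of 36 cases. Whether the numbers mark a shared origin is not known. With the replicate number as a block, 33 were called for the interaction, 74 higher on HFD within KO and 29 lower on HFD within WT. Between genotypes, 37 were then called lower in KO on ND and 2 higher in KO on HFD. The medians of fitted changes moved by less than the spread between replicates under all 60 alternatives. Of 240 alternatives for the 4 genes printed by ID, none changed a direction, 14 ended a call and 9 added one, all 9 for MGP_C57BL6NJ_G0026023.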

Other observations

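Consecutive ID numbers occurred among the 119 genes in 5 pairs, and in 4 of the 5 both genes had the same pattern in the KO HFD libraries. In 138 cases an eligible gene had an ID number next to that of one of the 119. A gene next to several of the 119 was counted for each of them. In 10 of the 138 cases, or 7.25%, the gene was itself among the 119, where the 119 made up 1.02% of eligible genes. The other 128 cases had median ratios of HFD to ND of 0.978 in KO and 0.767 in WT, against 0.866 and 0.788 over eligible genes. Whether consecutive IDs are neighbours or copies in the genome was not analysed here, and reads shared within a pair cannot be told apart.

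Without KO HFD replicate 1, 54 further genes met the limits. With all libraries their median ratio of HFD to ND was 1.38 in KO and 0.512 in WT. The opposite set, with ratios of at most 0.67 in KO and at least 1.5 in WT, held 38 genes. In 32 of these 38, KO HFD replicate 1 was the highest of the KO HFD libraries, where it was so in 31.3% of eligible genes. In 20 all 3 KO HFD libraries lay below all 3 KO ND libraries, where it was so in 38.6% of eligible genes. Nothing about the sets was tested.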
